A study of Mus musculus with 176 samples.

Results

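The genes of transforming growth factor beta (TGF-β) signalling were followed in single CD4 T cells. The 10 members were taken by name from the deposited count table, which holds 53546 gene names. They were the ligand Tgfb1, the surface docking protein Lrrc32, the receptors Tgfbr1 and Tgfbr2, the signal transducers Smad2, Smad3 and Smad4, and the inhibitors Smad7, Ski and Skil. All 10 reached 5 reads per 1000000 (cpm) over the cells analysed, the limit used for a comparison across genes. Cells were set apart by tetramer and by Foxp3, the transcription factor that defines regulatory T cells (Tregs). A cell with 10 or more Foxp3 reads was called Foxp3-high and any other cell Foxp3-low.

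Female C57BL/6J mice, an inbred strain with a single MHC class II allele, were immunized from 7 weeks of age with P6, a peptide of apolipoprotein B (ApoB), first in complete and then in incomplete Freund's adjuvant. Lymph nodes of the groin and of the abdominal aorta (inguinal, para-aortic) were taken 4 weeks after the first dose. Antigen-experienced CD4 T cells (CD44hi CD62L-) that bound the P6:I-Ab tetramer (P6+) or did not bind it (P6-) were sorted 1 per well and sequenced by Smart-Seq2, which reads whole transcripts without molecular identifiers. All groups thus came from immunized animals, and no unimmunized control was part of the comparison. The 32 P6+ cells came from 1 mouse, and the labels name no animal for the P6- cells.

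After filters on depth, gene number and mitochondrial reads, 161 cells were kept, among them all 32 P6+ cells, and 15 P6- cells were lost. The study also filtered on mapping rate, which was not used here. P6+ cells had a median of 1731610 reads and 4396 genes, and P6- cells had 1500460 reads and 3432 genes. Plates were read from the prefix of the cell titles, since the labels name no plate. All P6+ cells were on 1 of the 8 plates so defined, where 11 P6- cells also passed. Tetramer and plate could be separated only with those 11. The median share of mitochondrial reads was 1.29% in P6+ cells, 3.56% in P6- cells and 6.45% in the P6- cells of the shared plate. The 8 T cell markers together summed to 5715 cpm in P6+ and 6788 cpm in P6- cells, and single markers went both ways, as Cd3d was detected in 28 of 32 P6+ and 73 P6- cells and Trbc1 in 3 of 32 and 62. The part of these differences in any result between P6+ and P6- cells was not tested. Each group counts as 1 sample, so no p-value is given. Intervals are 95% exact binomial intervals and cover counting error only. The paper reports expanded clones among the P6+ cells. These cells are thus not independent draws, which the intervals do not cover. Every T cell marker had reads in both groups, and the CD8, natural killer cell, myeloid, platelet and stromal lists summed to at most 12.1 cpm in either. Among Foxp3-high P6- cells the CD8 list reached 78.5 cpm, which came from 1 of the 19 cells (1357 cpm in that cell). B cell markers summed to 46.2 cpm in P6+ and 0.4 in P6- cells. That sum came almost entirely from Cd79b in 2 Foxp3-high P6+ cells, while Cd79a and Ms4a1 were at 0 in P6+ cells. Without the cells that had 10 or more reads of a B cell marker, Tgfb1 was detected in 56.7% of P6+ cells and Lrrc32 in 33.3%, close to the values given for all cells.

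TGF-β1 is secreted in a latent form, and the product of Lrrc32 (GARP) holds this latent form on the surface of activated Tregs. Active ligand joins the type II receptor (Tgfbr2) with the type I receptor (Tgfbr1), which phosphorylates Smad2 and Smad3, and these enter the nucleus with Smad4. Smad7 blocks the type I receptor, and Ski and Skil repress Smad target genes. In CD4 T cells the pathway restrains effector responses and, with interleukin 2, induces Foxp3.

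Reads of 8 of the 10 members were concentrated in a minority of cells, and the exceptions were Skil in both groups and Tgfb1 in P6+ cells. The other cells had 0 to 9 reads of a given member, a level that was not counted as detection, while the cells with the transcript had up to 15539 reads. A cell held a median of 2 members at 10 or more reads in both groups and a maximum of 6 in both. None of the 10 was detected in 4 P6+ cells (12.5%) and in 20 P6- cells (15.5%). A pooled level therefore rested on few cells, and the number of cells behind each value is given with it. In pooled reads, fewer cells with a transcript and less transcript per cell cannot be told apart, which is why both are stated.

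**Figure D1:**
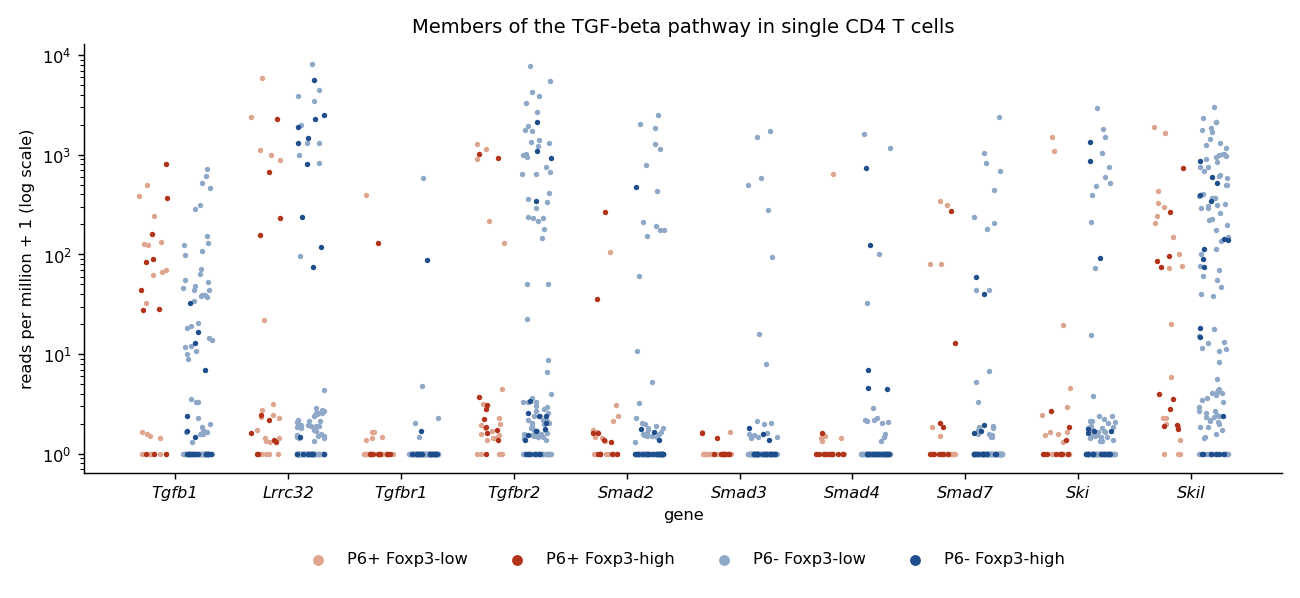
Level in cpm plus 1 (log scale) of the 10 members in each of the 161 cells, with P6+ cells on the left and P6- cells on the right of each gene and Foxp3-high cells in the darker colour. For all genes but Skil and, in P6+ cells, Tgfb1, most points lie near the bottom, and Tgfb1 has 18 of 32 P6+ cells in its upper cloud against 37 P6- cells.

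Tgfb1 was the 1 member whose share of cells had intervals apart between P6+ and P6- cells at the limit of 10 reads. The gene lies at chr7:25687002-25705077 on the plus strand (GRCm38). In P6+ cells its reads ran from 0 to 1830 with a median of 52, and in P6- cells from 0 to 1282 with a median of 0. At 10 or more reads it was found in 18 of 32 P6+ cells (56.2%, interval 37.7 to 73.6) and in 37 P6- cells (28.7%, interval 21.1 to 37.3). The ranges overlapped but the intervals of the shares did not, by less than 1 percentage point. At a limit of 1 read they did overlap, with 68.8% of P6+ (interval 49.99 to 83.9) and 41.1% of P6- cells (interval 32.5 to 50.09). The separation therefore ended there, and at that limit Lrrc32 was instead the 1 member with intervals apart, against 11.5% of all genes. The pooled level was 101.5 cpm in P6+ and 33.4 in P6- cells, a log2 ratio of 1.58, and it was 1.39 without the cell with most reads in each group. When every cell was thinned to 500000 reads, 17 P6+ and 28 P6- cells kept 10 reads.

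The plate values bear on this difference. The pooled Tgfb1 level of P6- cells ran from 3.35 to 68.3 cpm over the 8 plates, and the P6+ level lay above all of them. On the shared plate 2 of 11 P6- cells had 10 or more reads (18.2%, interval 2.28 to 51.8), so that within this plate the intervals overlapped, and the pooled log2 ratio was 1.48. A wider detection of transcripts went with the P6+ group in general. Among 9076 genes, 5.76% had shares of cells whose intervals did not overlap between P6+ and P6- cells, and 509 of these 523 genes were detected in more P6+ cells. Tgfb1, as 1 of 10 members, was 1 of those 509, and the part of the higher gene number per cell in its share was not tested.

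**Figure D2:**
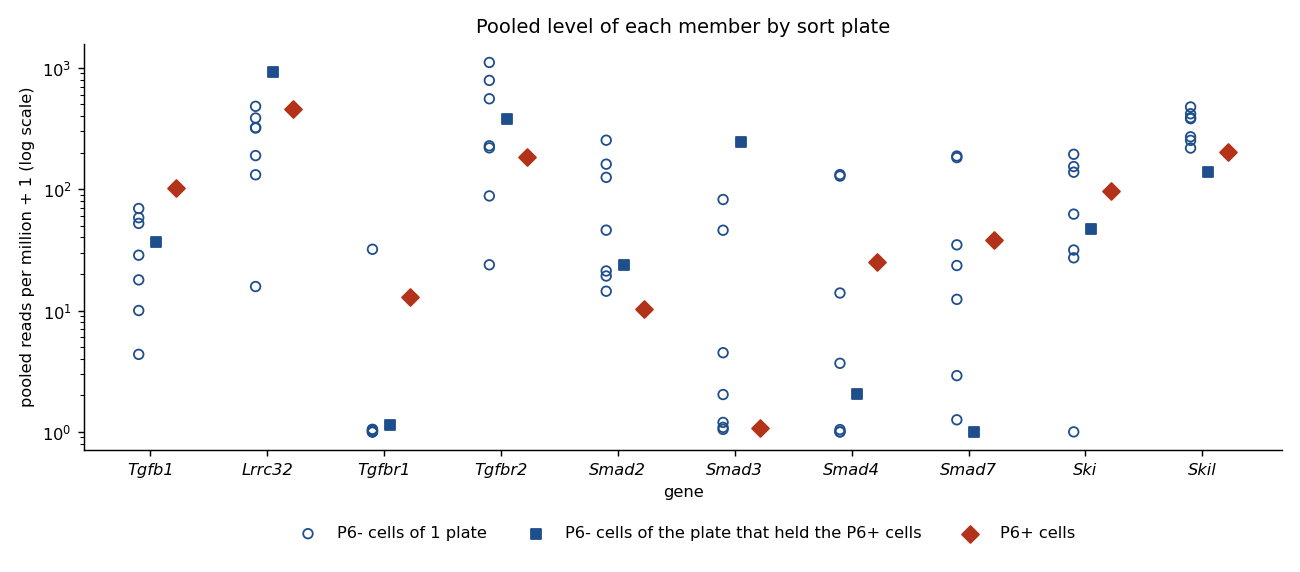
Pooled level in cpm plus 1 (log scale) of each member in P6+ cells (diamonds), in P6- cells of the same plate (squares) and in P6- cells of the other 7 plates (circles). The P6+ value lies outside the range of the P6- plates for Tgfb1, above it, and for Smad2, below it.

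The P6+ level lay outside the range of the 8 P6- plates for 2 of the 10 members, Tgfb1 above it and Smad2 below it, while this held for 14% of all genes tested. The spread between P6- plates was wide for the other members. Tgfbr2, for example, ran from 22.8 to 1106 cpm from plate to plate. The members' count was thus near that of genes in general.

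Lrrc32, at chr7:98489283-98502181 on the plus strand, had the highest level of the 10 per kilobase of exon in both groups, with 96.8 cpm per kilobase in P6+ and 67.3 in P6- cells. It was detected in 10 of 32 P6+ cells (31.2%, interval 16.1 to 50.01) and in 20 P6- cells (15.5%, interval 9.73 to 22.9). The 10 P6+ cells had 13117, 4893, 2668, 1964, 1549, 1357, 739, 357, 222 and 38 reads, so 1 cell held 48.7% of all Lrrc32 reads of the group. The pooled level was 453.8 cpm in P6+ and 315.6 in P6- cells, a log2 ratio of 0.52. This direction did not hold throughout. The log2 ratio was -0.19 without the cell with most reads in each group and -1.02 against the P6- cells of the shared plate, of which 4 of 11 had Lrrc32.

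Of the receptors, Tgfbr2 was by far the more widely detected. It had 10 or more reads in 7 of 32 P6+ cells (21.9%) and 37 P6- cells (28.7%), at pooled levels of 182.7 and 432.3 cpm. The 7 P6+ cells had 288 to 2569 reads, and 1 P6- cell reached 15539. Tgfbr1 was detected in 2 cells of each group, with 555 and 150 reads in the P6+ cells and 789 and 70 in the P6- cells. No cell of either group had 10 or more reads of both receptors, and a count of 0 allows shares of up to 9.38% of P6+ and 2.33% of P6- cells.

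The receptor-regulated Smads and their partner Smad4 were sparse. Smad2 was detected in 3 P6+ cells, with 41 to 366 reads, and in 15 P6- cells with up to 5732 reads. Its pooled level was 9.25 cpm in P6+ and 93.7 in P6- cells, a log2 ratio of -3.21, though the shares of cells, 9.38% and 11.6%, were close. The P6- cells of the shared plate stood at 22.7 cpm, so the difference was smaller there. In P6+ cells 1 cell held 66.7% of the Smad2 reads. Smad3 had 4 single reads among all P6+ cells, which allows a share of up to 9.38% of cells, and 7 P6- cells (5.43%, interval 2.21 to 10.9) had 20 to 2913 reads. The absence of a P6+ cell with Smad3 was thus within counting error of the P6- share. Smad4 was detected in 1 P6+ cell, with 1430 reads, and in 7 P6- cells (5.43%), with 16 to 5165 reads. A receptor together with any of these 3 Smads was found in 2 P6+ and 8 P6- cells.

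Among the inhibitors, Skil was detected in as many cells as any member. It had 10 or more reads in 18 of 32 P6+ cells (56.2%, interval 37.7 to 73.6) and in 73 P6- cells (56.6%, interval 47.6 to 65.3). The difference was well inside the intervals, and the pooled levels were 199.9 and 331.3 cpm. On the shared plate the P6- level of Skil was 136.6 cpm, below that of P6+ cells, so the direction turned there. It also turned for Lrrc32, for Smad4 (1.04 cpm on that plate, from 16 reads of 1 P6- cell) and for Smad7. Smad7, itself induced by TGF-β, was detected in 6 P6+ cells (18.8%, interval 7.21 to 36.4), with 14 to 1005 reads, and in 12 P6- cells (9.30%, interval 4.90 to 15.7), with 51 to 4014 reads. None of the 11 P6- cells on the shared plate had a Smad7 read. Ski was detected in 3 P6+ cells, with 3405, 2189 and 44 reads, and in 15 P6- cells, at pooled levels of 95.4 and 88.6 cpm.

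Per kilobase of exon, the P6+ order after Lrrc32 was Tgfbr2 (22.3 cpm per kilobase), Skil (20.6), Tgfb1 (20.1), Ski (17.1), Smad7 (8.16), Smad4 (6.52), Tgfbr1 (1.83), Smad2 (1.05) and Smad3 (0.01). In P6- cells it was Tgfbr2 (52.8), Skil (34.2), Ski (15.9), Smad7 (11.2), Smad4 (11.2), Smad2 (10.7), Tgfb1 (6.62), Smad3 (6.32) and Tgfbr1 (0.65). Tgfb1 moved from the eighth to the fourth place between the groups. Each group counted as 1 sample, with no spread over animals, so neighbours in either order cannot be ranked.

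In all, 2 members were more than 2-fold higher and 3 more than 2-fold lower in P6+ than in P6- cells. For 2 of these 5 the limit of 5 cpm had fixed the direction, since Tgfbr1 (11.96 and 4.25 cpm) passed it only through P6+ cells and Smad3 (0.07 and 35.05 cpm) only through P6- cells. Such a difference in either direction was seen for 53.5% of all genes tested, so 5 of 10 was what genes in general showed. The limit fixed the direction of 24.3% of all genes tested in this comparison, against 20% of the members. The median log2 ratio was -0.59 over the 10 members and -0.18 over all 9076 genes.

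The split by Foxp3 in P6- cells, 19 high and 110 low, asked whether the members went with a Treg transcript in cells that did not bind the tetramer. The median share of mitochondrial reads was 2.11% in the Foxp3-high and 3.93% in the Foxp3-low cells, and its part in the values of this split was not tested. Lrrc32 was detected in 10 of 19 Foxp3-high cells (52.6%, interval 28.9 to 75.6) and in 10 of 110 Foxp3-low cells (9.09%, interval 4.45 to 16.1). The level in a Foxp3-high cell ran from 0 to 5592 cpm with a median of 74.5 cpm, and in a Foxp3-low cell from 0 to 8238 cpm with a median of 0, so the ranges overlapped. The cells that did have Lrrc32 had similar amounts, with medians of 2279.5 and 2353 reads, so the groups differed in how many cells had the transcript. The pooled levels were 991.0 and 201.3 cpm (log2 ratio 2.29), and Lrrc32 was higher in Foxp3-high cells on 5 of the 8 plates. Without the Foxp3-high cell that had CD8 marker reads, Lrrc32 was in 9 of 18 cells at 1047 cpm. At a Foxp3 limit of 1 read the log2 ratio fell to 0.85. The list of 7 Treg markers, which includes Foxp3, had a median of 6182 cpm in the Foxp3-high and 1034 cpm in the Foxp3-low P6- cells. In P6+ cells the medians were 6722 and 3312 cpm, so Foxp3-low P6+ cells had more of these markers than Foxp3-low P6- cells, and Ikzf2 was detected in 13 of 21 and 12 of 110 of them. Summed over each group, the list stood at 3980 cpm in P6+ and 2105 cpm in P6- cells, and its part in the tetramer comparisons was not tested. Reads of Foxp3 may include those of genes that share 31.5% of its exon bases (Ccdc22, Flicr, Gm36995 and Ppp1r3f), since the strand setting of the counting is not given in the sources used here.

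Lrrc32 was the 1 member of 10 whose intervals did not overlap in this split, against 1.1% of all genes. At a limit of 1 read the separation ended, with Lrrc32 in 57.9% of Foxp3-high (interval 33.5 to 79.7) and 37.3% of Foxp3-low cells (interval 28.2 to 47.01), and 0 members had intervals apart, against 0.485% of genes. Tgfb1 was detected in 4 of 19 Foxp3-high cells (21.1%, interval 6.05 to 45.6), with 39, 30, 22 and 16 reads, and in 33 of 110 Foxp3-low cells (30%, interval 21.6 to 39.5), with 12 to 1282 reads. The pooled level was 3.76 against 38.4 cpm (log2 ratio -3.05), and the cells that had Tgfb1 held a median of 26 reads in the Foxp3-high and 88 in the Foxp3-low group. The pooled Tgfb1 level was higher in Foxp3-high cells on 1 of the 8 plates, and that of Smad7 on 0 of the 8. Only 4 plates had a Foxp3-high cell with 10 or more reads of Tgfb1, and 2 plates one with Smad7. Plates 4, 7 and 8 held 1 Foxp3-high cell each, and on plate 6 Smad7 was 0 in both groups. These plate counts, and that of Lrrc32, therefore say little. Smad7 was likewise close in its share of cells but lower in amount, with 72 and 67 reads in 2 of 19 Foxp3-high cells and up to 4014 reads in 10 of 110 Foxp3-low cells. Tgfbr2 was detected in 4 of 19 and 33 of 110 cells (log2 ratio -1.24). Smad3 had 3 reads in all Foxp3-high cells, and each of the 7 P6- cells with Smad3 was Foxp3-low. Smad4 was found in 3 of 19 and 4 of 110 cells, and Skil in 12 of 19 (63.2%) and 61 of 110 (55.5%). Over the 10 members 1 was more than 2-fold higher and 5 lower in Foxp3-high cells. Smad3 is among the 5, but its 0 of 19 Foxp3-high cells allow a share of 15.8%, above the 6.36% of Foxp3-low cells, and it passed the limit of 5 cpm only through Foxp3-low P6- cells, which fixed its direction. For all genes the share past 2-fold was 61%, with 20.1% higher and 40.8% lower, so the excess of lower values was also that of genes in general.

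**Figure D3:**
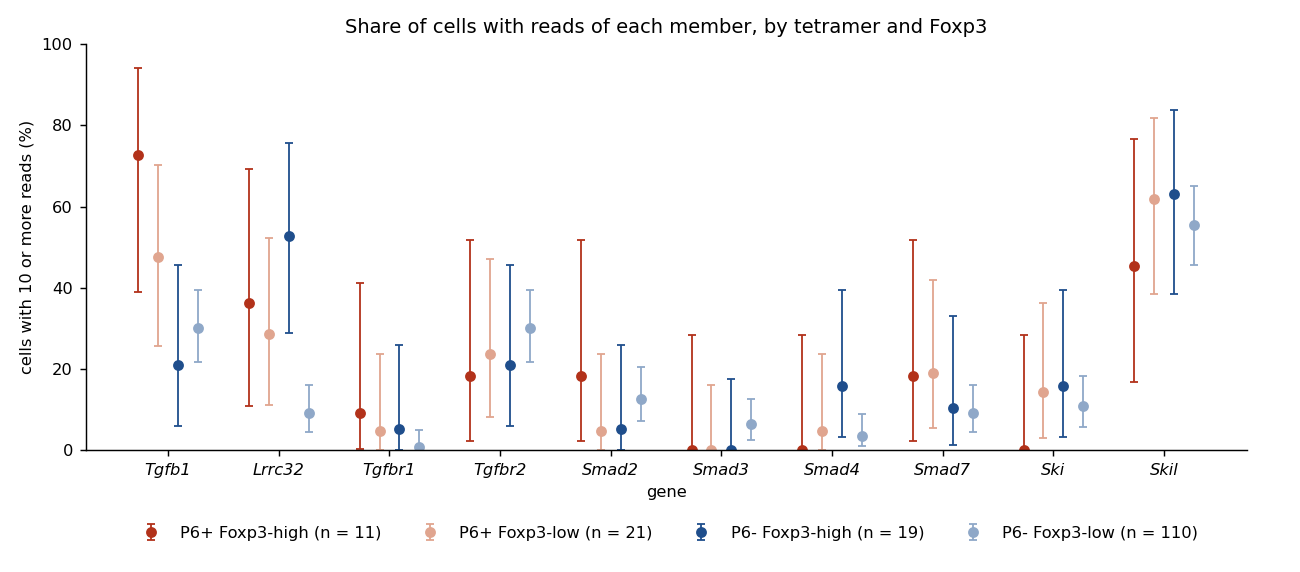
Percent of cells with 10 or more reads of each member in the 4 groups defined by tetramer and Foxp3, with 95% exact binomial intervals that cover counting error only. Lrrc32 separates Foxp3-high (52.6%) from Foxp3-low (9.09%) P6- cells, and Tgfb1 is highest in the Foxp3-high P6+ cells (72.7%).

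The same split in P6+ cells, 11 high and 21 low, gave another picture. Tgfb1 was detected in 8 of 11 Foxp3-high cells (72.7%, interval 39.03 to 93.98), with 1830, 600, 188, 99, 92, 59, 45 and 26 reads, and in 10 of 21 Foxp3-low cells (47.6%, interval 25.7 to 70.2), with 67 to 812 reads. The intervals overlapped. The pooled log2 ratio of 1.10 fell to 0.21 without the top cell of each group. Lrrc32 was detected in 4 of 11 Foxp3-high cells (36.4%, interval 10.9 to 69.2), with 2668, 739, 357 and 222 reads, and in 6 of 21 Foxp3-low cells (28.6%, interval 11.3 to 52.2), with 38 to 13117 reads. Its pooled level was nevertheless lower in the Foxp3-high cells, 219.5 against 557.4 cpm (log2 ratio -1.34). Without the top cell of each group this log2 ratio stayed past 2-fold. Without the 2 cells with Cd79b reads it was -0.90, no longer past 2-fold. The 3 cells with Ski and the 1 cell with Smad4 were all Foxp3-low, although 0 of 11 Foxp3-high cells allows 27.3%, and 2 of the 3 cells with Smad2 were Foxp3-high. No member had intervals that did not overlap, against 0.309% of genes (at 1 read also none, against 0.121%), and 6 of 10 members were past 2-fold, against 55.8% of genes.

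**Figure D4:**
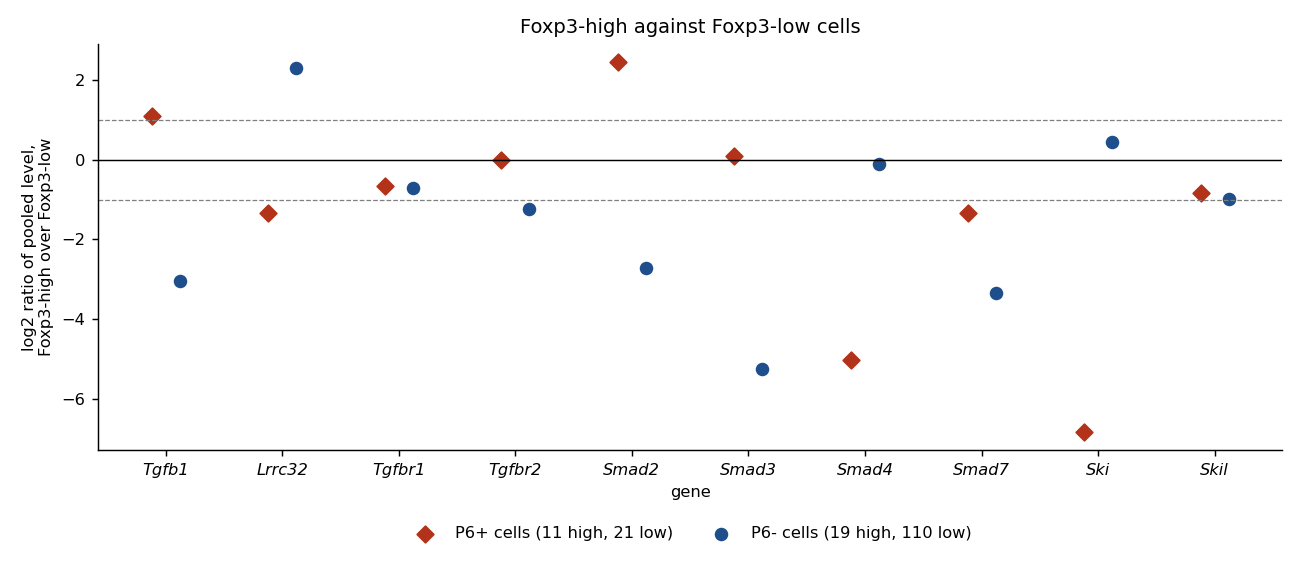
Log2 ratio of the pooled level in Foxp3-high over Foxp3-low cells for each member, in P6+ cells (diamonds) and P6- cells (circles), with dashed lines at 2-fold. Tgfb1, Lrrc32 and Smad2 lie beyond the dashed lines in opposite directions in P6+ and P6- cells.

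When only Foxp3-high cells were compared, Tgfb1 was in 8 of 11 P6+ and 4 of 19 P6- cells, at 161.6 and 3.76 cpm (log2 ratio 5.09). In the P6+ group 1 cell held 62.3% of these reads, and without the top cell of each group the log2 ratio was 4.32. The intervals of these shares overlapped. Against the 3 Foxp3-high P6- cells of the shared plate, of which 1 had 16 reads of Tgfb1, the log2 ratio was 5.34. Lrrc32 went the other way, with 4 of 11 and 10 of 19 cells and a log2 ratio of -2.17. All 3 Foxp3-high P6- cells of the shared plate had Lrrc32, with 2718, 3576 and 6184 reads. Of the 10 members 6 were past 2-fold, among them Ski and Smad4 with 0 of 11 P6+ cells, against 57.7% of genes, and none had intervals apart, against 0.419% (at 1 read also none, against 0.628%). Among the 6, Smad7 turned direction without the top cell of each group, and Tgfbr1 was left with almost no reads to compare. Among Foxp3-low cells Tgfb1 was in 10 of 21 P6+ and 33 of 110 P6- cells (log2 ratio 0.95), and Lrrc32 in 6 of 21 and 10 of 110 cells (log2 ratio 1.46). In these P6+ cells 1 cell held 57.2% of the Lrrc32 reads. Without the top cell of each group the Lrrc32 ratio was no longer past 2-fold. Here 5 members were past 2-fold, against 58.9% of genes, and none had intervals apart, against 2.49%, while at a limit of 1 read Lrrc32 and Tgfbr1 did, against 6.69%. The limit of 5 cpm again fixed the direction of 2 of the 5, since Tgfbr1 passed it only through the Foxp3-low P6+ cells and Smad3 only through the Foxp3-low P6- cells. It did so for 16.5% of all genes. These comparisons share cells with the 2 Foxp3 splits above and are not independent of them.

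P6+ cells were also divided by Trbv13-2, the β chain segment of the most frequent P6-specific receptor, with 16 cells at 10 or more reads and 16 below. Lrrc32 was detected in 8 of the 16 Trbv13-2-bearing cells (50%, interval 24.7 to 75.3) and in 2 of the other 16 (12.5%, interval 1.55 to 38.3), with overlapping intervals. One of the latter 2 was the cell with 13117 reads, so that the pooled level was 405.5 cpm in the bearing and 503.9 in the other cells. Without the top cell of each group the log2 ratio turned from -0.31 to 2.15. Tgfb1 was in 8 and 10 of the 16 cells. All 3 cells with Ski and the cell with Smad4 lacked Trbv13-2, but 0 of 16 bearing cells allows 18.8%, so a lower share was not detectable. Past 2-fold were 6 of 10 members, Ski and Smad4 included, as well as Tgfbr1, which passed the limit of 5 cpm only through the cells without Trbv13-2, against 57.5% of genes, and none had intervals apart, against 0.353% (at 1 read also none, against 0.0992%).

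Ligand and docking protein were found together in 5 of 32 P6+ cells and 7 P6- cells. Of the 10 P6+ cells with Lrrc32, 4 were Foxp3-high, and of the 20 P6- cells with Lrrc32, 10 were. All 3 P6+ cells with Ski also had Tgfb1 and Tgfbr2, and all 3 with Smad2 and both with Tgfbr1 had Tgfb1. These counts are small and describe the cells only.

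The wider pathway was followed with 66 further genes, of which 65 were in the table and 40 passed the limit of 5 cpm. Between P6+ and P6- cells 11 of the 40 were more than 2-fold higher, 10 lower and 19 neither, again close to the 53.5% of all genes. Intervals were apart for 5 of the 40 (Nrros, Itgav, Fkbp1a, Itgae and Cdkn1b), against 5.76% of genes. At a limit of 1 read this held for 11 of the 40, against 11.5% of genes. Among the 4 tested genes for holding and activating latent TGF-β, 3 were past 2-fold higher in P6+ cells, where 20.9% of all genes were, and Furin was not. The integrin chain Itgav was in 23 of 32 and 32 cells (327.4 and 144.2 cpm), its partner Itgb8 in 4 and 4 cells (57.5 and 12.2), and Nrros, a docking protein related to Lrrc32, in 10 and 6 cells (261.3 and 57.9). Of 12 tested targets of TGF-β in T cells, 3 were past 2-fold higher, 1 lower and 8 neither. Among them Itgae, which encodes CD103, was in 11 of 32 P6+ cells (34.4%) and 10 P6- cells (7.75%), at 547.1 and 119.5 cpm. It was in 0 of the 11 P6- cells on the shared plate, which allows 27.3%. Of the other targets, Runx3 was in 7 and 12 cells (102.2 and 36.3 cpm), Cd101 in 1 and 6 (70.7 and 17.5), and the cell cycle inhibitor Cdkn1a was lower (4 and 17 cells, 32.1 and 114.7).

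Among the cofactors and modulators, the coactivator Crebbp was in 13 of 32 and 26 cells (134.6 and 49.3 cpm), the kinase Hipk2 in 4 and 2 (54.3 and 19.5), Map3k7 (TAK1) in 4 and 4 (55.1 and 13.5), its partner Tab2 in 9 and 11 (27.4 and 12.96), and Pmepa1, a feedback inhibitor, in 2 and 6 (56.1 and 12.1). Lower in P6+ cells were the ubiquitin ligases Rnf111 (4 and 24 cells) and Traf6 (3 and 18). The ubiquitin ligase Smurf2 was in 1 and 6 cells (0.61 and 17.9 cpm) and the phosphatase Ppm1a in 1 and 8 (3.22 and 42.8 cpm). A further 5 of the 10 counted as lower had 0 P6+ cells, namely the deubiquitinase Usp11 (2 P6- cells), the decoy receptor Bambi (4), Tab3 (1), Tgfb3 (1) and Smad1 (2). A count of 0 of 32 allows 9.38% of cells, more than the P6- share of each, so a lower share was not detectable. These 5, Smurf2 and Ppm1a passed the limit of 5 cpm only through P6- cells, which fixed the direction of 7 of the 10.

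Between Foxp3-high and Foxp3-low P6- cells 7 of the 40 genes were higher and 21 lower, with a median log2 ratio of -1.11 against -0.44 over all genes. Of all genes 61% were past 2-fold, 20.1% higher and 40.8% lower. Itgae was in 7 of 19 Foxp3-high and 3 of 110 Foxp3-low cells, at 509.9 and 53.4 cpm, with intervals that did not overlap, the 1 gene of the 40 for which this held, against 1.1% of all genes. In the Foxp3-low cells 1 cell held 95.2% of the Itgae reads. The intervals were also apart at a limit of 1 read, and 6 of the 8 plates had a Foxp3-high cell with 10 or more reads of Itgae. Without the Foxp3-high cell that had CD8 marker reads it was in 6 of 18 cells at 500.6 cpm. Nrros was in 4 of 19 and 2 of 110 cells (241.9 and 26.8 cpm), Runx3 in 4 and 8 (68.7 and 30.9), Crebbp in 6 and 20 (101.4 and 40.5), Map3k7 in 3 and 1 (90.2 and 0.50), Trim33, a ligase acting on Smad4, in 3 and 2 (50.2 and 17.03), and Smad1 in 1 and 1 (57.9 and 6.77). Of the 21 counted as lower, the targets Id3 (1 of 19 and 6 of 110 cells), Cdkn1a (2 and 15), Cdkn1b (10 and 53) and Bhlhe40 (6 and 28) and the modulators Tgif1 (6 and 48), Rnf111 (4 and 20), Ep300 (1 and 6), Tab1 (1 and 2), Tab2 (2 and 9), Traf6 (4 and 14) and Usp15 (4 and 23) had Foxp3-high cells with the transcript. They were lower in pooled level, which is not the share of cells. That share was no lower in Foxp3-high cells for Cdkn1b, Bhlhe40, Rnf111, Tab1, Tab2, Traf6 and Usp15. It was lower for Id3, Cdkn1a, Tgif1 and Ep300. The other 10 had 0 of 19 Foxp3-high cells, namely Tgfbr3 (6 of 110 Foxp3-low cells), Bambi (4), Klf10 (7), Cd101 (6), Hipk2 (2), Itgb8 (4), Tgfb3 (1), Tab3 (1), Usp11 (2) and Pmepa1 (6). A count of 0 of 19 allows 15.8% of cells, more than the Foxp3-low share of each, so a lower share of these 10 was not detectable. Tgfb3, Bambi, Usp11 and Tab3 also passed the limit of 5 cpm only through the Foxp3-low P6- cells, which fixed the direction of 4 of the 21. Of the 12 targets tested, 2 were thus past 2-fold higher in this split (Itgae and Runx3) and 6 lower. In the Foxp3 split of P6+ cells Itgae was in 5 of 11 and 6 of 21 cells, at 365.5 and 627.3 cpm (log2 ratio -0.78).

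Over all 161 cells, the genes whose level most resembled that of Lrrc32 by Spearman's correlation were Faim (0.38), Nfkb2 (0.37), Tnfrsf9 (0.36), Tpm4 (0.35) and AI467606 (0.34), among 3758 genes detected in at least 16 cells. For Tgfb1 they were Abcf1 (0.32), Tmem254a (0.31), Cd27 (0.30), Il1r2 (0.30) and Tsn (0.30). Of the 30 cells with Lrrc32, 17 also had Tnfrsf9, and of the 55 cells with Tgfb1, 37 also had Cd27. The cells share their sequencing run and differ in depth, so these weak correlations are a description and no finding.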

How the data were processed

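Tetramer-sorted cells were sequenced by Smart-Seq2. Per the study's methods and processing notes, the authors checked reads with FastQC 0.11.7, mapped them with STAR 2.6.0a to GRCm38, counted reads per gene and deposited the raw counts of all sorted cells, with SAMtools 0.1.19 also named. Here rows with the same name were averaged, and cells with 500000 reads, 2000 genes and under 10% mitochondrial reads were kept. The table lists no molecular identifiers, so reads are not independent molecules. Within each group the counts of all cells were added up and scaled to 1000000 reads (cpm), and log2 ratios used a pseudocount of 1. Detection meant 10 or more reads in a cell. Each group counted as 1 sample, so there was no test. Genes at 5 cpm over the 161 cells formed the background. A count of 0 allows 3 counts.

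The members and gene lists were chosen with earlier results of these data known. From the wider list every gene past 2-fold in the P6+ or the P6- Foxp3 comparison was named, and Itgae. Gene positions came from GENCODE vM21. Alternatives changed the cells kept, the pooling, the normalization (TMM from edgeR 4.0.16, size factors from DESeq2 1.42.0, both without a test), the pseudocount, the limits for Foxp3, Trbv13-2 and detection, the depth, the plates and the top cells. Python 3.11.15, pandas 2.3.3, numpy 2.4.6, scipy 1.17.1 and R 4.3.3 were used.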

Additional observations from a re-analysis of the deposited data

Results flagged for a closer look

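The ratio of Foxp3-high over Foxp3-low cells went past 2-fold in opposite directions in P6+ and P6- cells for 3 members, as for 15.8% of all genes tested, and the difference between the 2 ratios was not tested. For Tgfb1 the log2 ratio was 1.10 in P6+ and -3.05 in P6- cells, and without the top cell of each group it was 0.21 and -3.19. For Lrrc32 it was -1.34 in P6+ and 2.29 in P6- cells, although the share of P6+ cells with Lrrc32 was 36.4% in the Foxp3-high and 28.6% in the Foxp3-low group, and the Foxp3-low group held the cell with 13117 reads. Without the top cell of each group the P6+ value of Lrrc32 stayed past 2-fold lower. Without the 2 P6+ cells with B cell marker reads it was -0.90, which is not past 2-fold. For Smad2 it was 2.44 in P6+ and -2.72 in P6- cells, which rested on 3 P6+ cells and on 1 Foxp3-high P6- cell with 10 or more reads.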

How the results depend on the processing

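No paired analysis was possible because no result comes from a test and the labels give no shared replicate numbers, but the tetramer groups were also compared on their shared plate and the P6- Foxp3 split within plates. Of 34 member ratios past 2-fold, all 34 kept their direction and stayed past 2-fold without cell filters, at 1000000 reads per cell, with TMM factors, with DESeq2 size factors and with a pseudocount of 0.1. The number was 28 with the mean of single cells, 27 with a pseudocount of 10 and 25 without the top cell of each group. The Foxp3 limit of 1 read kept 17 of 23, and that of 50 reads kept 23 of 23. Against P6- cells of the same plate, 9 members were past 2-fold between P6+ and P6- cells and 9 among Foxp3-low cells, where 5 had been in each, against 65.7% and 64.4% of all genes. A pseudocount of 10 left 3 members past 2-fold in the Trbv13-2 split, where 6 had been. In Foxp3-high P6+ over P6- cells, ratios reversed for Tgfbr1 (-0.049) and Smad7 (-0.86) without the top cell, and for Tgfbr1 (-1.36) and Smad7 (-1.72) at a Foxp3 limit of 1 read. The construction of the first shows its cause, since 1 cell held nearly all reads, and the cause of the second was not tested. Leaving out each P6- plate gave 4 to 6 members past 2-fold between P6+ and P6- cells. Without the filter on low levels, 24.3% to 27.9% of 26035 genes were past 2-fold. Leaving out cells with B cell marker reads, an alternative chosen after seeing the data, gave 4 in place of 6 members in the P6+ Foxp3 split, where Lrrc32 (-0.90) and Smad7 (-0.91) were no longer past 2-fold. A detection limit of 1 read ended the separation of intervals for Tgfb1 between P6+ and P6- cells and for Lrrc32 in the P6- Foxp3 split. Leaving out cells with CD8 marker reads, also chosen after seeing the data, kept all 34. Thinned to 500000 reads, Tgfb1 was detected in 28 in place of 37 P6- cells and Skil in 62 in place of 73, so depth limits these shares.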
